A study of Danio rerio with 8 samples.

Results

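Star-strand miRNAs, the mature miRNAs whose names end in an asterisk, were read beside their guide strands on a zebrafish miRNA microarray. Every zebrafish probe with a name that begins with dre- and ends in an asterisk was taken, which gave 32 of the 248 zebrafish miRNA probes. The guide of each was the probe of the same name without the asterisk, and all 32 guides were on the chip. The names alone decided which probes were taken, and no measured value entered that rule, though earlier results of these data were known. Total RNA came from whole embryos at 72 hours post-fertilization (hpf). In the MC-RR group, 4 arrays held RNA of embryos that had received microcystin arginine arginine (MC-RR), a cyclic peptide toxin of cyanobacteria that inhibits protein phosphatases, by injection into the yolk during early cleavage, at 0.4 of the median lethal dose. In the control group, 4 arrays held RNA of embryos injected with saline. The methods name wild-type AB fish and the Tg-(flk:GFP) line without saying which gave the RNA of the arrays, and how many embryos made up a sample is not given in the sources used here. In whole embryos, fewer cells of a type and less RNA per cell cannot be told apart.

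A miRNA is cut from a hairpin precursor as a short duplex of both hairpin arms. The strand that is loaded into an Argonaute protein, the guide, pairs through its seed (bases 2 to 8) with messenger RNAs and represses them, and the other strand, the passenger or star strand, is usually degraded. Strands that begin with U and whose 5′ end is loosely paired tend to be the ones loaded, and both strands of some duplexes are loaded. The asterisk was given to the arm taken as the less abundant when a miRNA was catalogued, and later catalogues name arms 5p and 3p instead.

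The pairs below are those whose values are given on every array, with the seed of each strand in capitals. In the first set the star probe was the brighter of the pair in the mean of both groups. For miR-727 this was so on 2 of the 8 arrays only, and that pair is counted as mixed below.
dre-miR-199*: uACAGUAGucugcacauugguu
dre-miR-199: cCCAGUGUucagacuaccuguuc
dre-miR-140*: uACCACAGgguagaaccacggac
dre-miR-140: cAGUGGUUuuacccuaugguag
dre-miR-727*: uCAGUCUUcaauuccucccagc
dre-miR-727: gUUGAGGCgaguugaagacuua
The stars of miR-199 and miR-140 begin with U and their guides with C, and the star of miR-727 begins with U and its guide with G. Among the first 4 bases, A or U made up 3 in the star of miR-199 and 1 in its guide. For miR-140 and miR-727 the number was 2 in each strand. Over the 16 tested stars the guide had more in 5 pairs, the star in 4, and 7 were equal.

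In the next set the guide probe was brighter than the star probe on every array.
dre-miR-203b*: aGUGGUUCucaacaguucaaca
dre-miR-203b: gUGAAAUGuucaggaccacuug
dre-miR-126*: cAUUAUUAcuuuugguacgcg
dre-miR-126: uCGUACCGugaguaauaaugc
dre-miR-10d*: cAGAUUCGguuuuaggggagua
dre-miR-10d: uACCCUGUagaaccgaaugugug
dre-miR-10a*: cAAAUUCGugucuuggggaaua
dre-miR-10a: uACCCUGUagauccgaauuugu
dre-miR-181a*: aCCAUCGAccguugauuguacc
dre-miR-181a: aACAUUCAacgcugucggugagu
dre-miR-9*: uAAAGCUAgauaaccgaaagu
dre-miR-9: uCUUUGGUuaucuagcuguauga
dre-miR-133a*: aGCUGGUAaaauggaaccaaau
dre-miR-133a: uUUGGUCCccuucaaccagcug
dre-miR-126b*: cGUACCGUgaguaauagugca
dre-miR-126b: uCGUACCGugaguaauagugca
The letters of dre-miR-126b* are those of dre-miR-126b without the first base. These probes thus share a strand and are not the arms of a duplex. The stars of miR-10a and miR-10d differ from each other by 5 edits, while their guides share the seed ACCCUGU.

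In the last set either strand could be the brighter, depending on the array.
dre-miR-129*: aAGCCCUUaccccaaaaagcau
dre-miR-129: cUUUUUGCggucugggcuugcu
dre-miR-210*: aGCCACUGacuaacgcacauug
dre-miR-210: cUGUGCGUgugacagcggcuaa
dre-miR-30e*: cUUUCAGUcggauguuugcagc
dre-miR-30e: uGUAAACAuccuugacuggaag
dre-miR-18b*: cUGCCCUAagugccccuucugg
dre-miR-18b: uAAGGUGCauuuagugcagaua
Among the 32 stars, 7 began with U, against 18 of the 32 guides and 142 of the 248 zebrafish probes (57.3%). Of the remaining stars, 12 began with C, 10 with A and 3 with G. A predicted duplex of star and guide (RNAduplex) had 13 to 20 base pairs and a free energy of -29.4 to -15.7 kcal/mol in the 31 pairs other than miR-126b, for which it had 12 base pairs and -8.8 kcal/mol. Median C and G content was 46.5% in the stars and 45.5% in the guides. The 32 stars held 31 different seeds. Only dre-miR-17a* and dre-miR-20a* shared a seed, CUGCAGU, and no star seed was found in a zebrafish probe without an asterisk. Sequences are those listed for the probes in the scanner output.

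Signal is given as log2 normalized intensity, with 10 spots averaged per probe. A background offset keeps it near 6 where a probe shows nothing, so differences of dim probes are compressed. A probe was tested if its mean raw intensity was above the blank percentile, the level that 95% of an array's blank spots stay under, on at least 4 of 8 arrays, which 187 of the 248 zebrafish probes did. The blank percentile was between 49.7 and 188 on 7 of the arrays and 512 on control replicate 4. Zebrafish probes above it numbered 157 to 224 per MC-RR array and 71 to 197 per control array. Of 14 miRNAs known to mark tissues of the embryo, 13 were above it on at least 4 arrays, among them those of muscle, nervous system, skin, liver and endothelium. The blood marker dre-miR-144 was above it on 0 arrays, and dre-miR-451, also of blood, on 7. Precision is limited by the number of arrays, 4 in each group.

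Fewer star strands than guides gave a signal above background. The filter passed 16 of the 32 stars (50%) and 27 of the 32 guides (84.4%). Of the 216 zebrafish probes that are not stars, the guides among them, it passed 171 (79.2%). Only dre-miR-199* and dre-miR-9* exceeded the blank percentile on all 8 arrays. Stars above it numbered 14, 11, 26 and 12 on MC-RR arrays 1 to 4, against 18, 10, 19 and 3 on control arrays 1 to 4. The highest number came from the array with the lowest blank percentile and the lowest from control replicate 4, where 1 of the 3 was dre-miR-27c*, which passed there through a single spot. The median signal over all 32 stars was 6.39 to 6.45 on the MC-RR arrays and 6.37 to 6.66 on the control arrays. For the guides it was 8.61 to 9.0 on the MC-RR arrays and 8.59 to 8.89 on the control arrays.

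The brightest star was dre-miR-199*, the partner of a miRNA of mesenchyme and connective tissue. It had log2 signals of 12.59, 12.56, 12.42 and 12.22 in MC-RR embryos, against 12.45, 12.46, 12.15 and 12.22 in control embryos. It stood among the bright probes of the chip on every array and the groups overlapped. The other bright star was dre-miR-9*, the partner of a miRNA of neural progenitors, with 11.63, 12.28, 12.06 and 12.27 in MC-RR embryos, against 11.77, 12.39, 12.20 and 12.41 in control embryos. The array of replicate 1 was the lowest of both groups. In mammals this strand is known to act in neurons in its own right. The third star by signal, dre-miR-126b*, had 8.78, 8.82, 8.93 and 9.61 in MC-RR embryos, against 8.69, 8.70, 8.82 and 9.43 in control embryos, and was highest on the replicate 4 array of each group. The other 13 tested stars had group means between 6.67 (dre-miR-133a* in MC-RR embryos) and 8.75 (dre-miR-210* in MC-RR embryos).

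**Figure D1:**
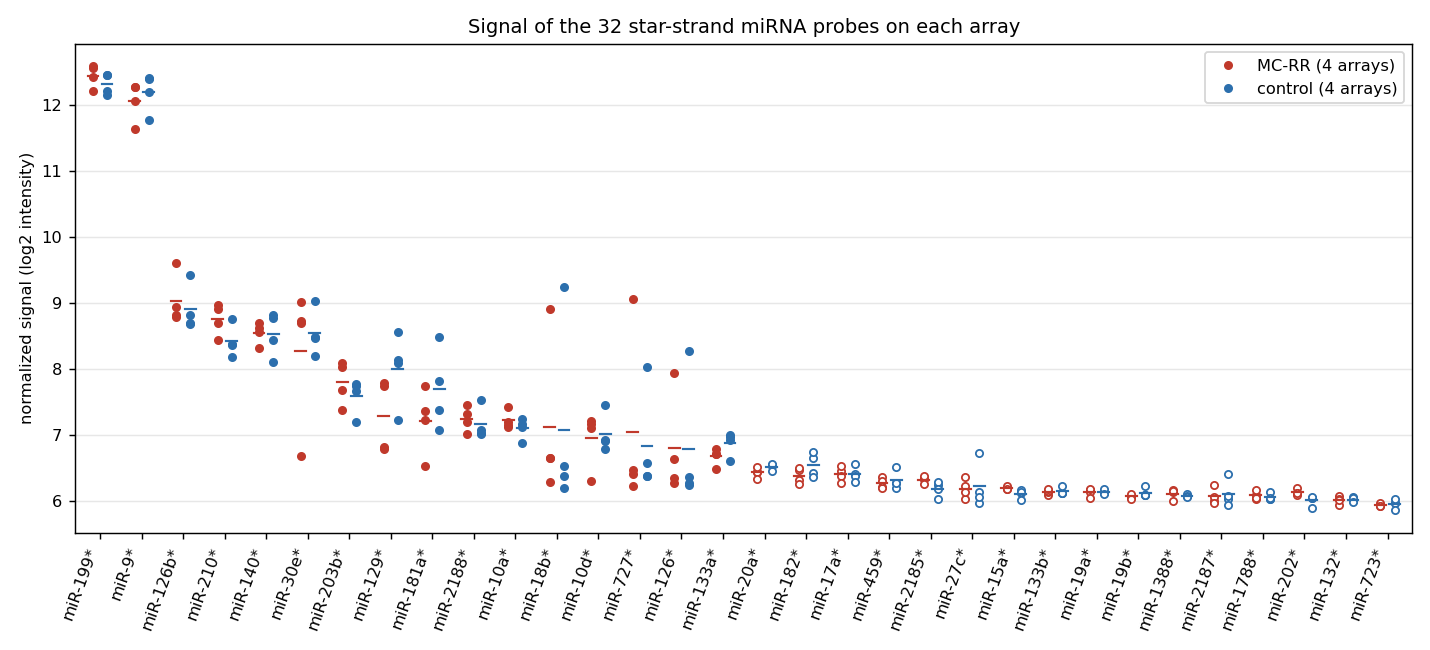
Log2 normalized intensity of the 32 star probes on each of the 8 arrays, MC-RR in red on the left and control in blue on the right of each name, with a bar at the mean of 4 arrays. Filled symbols are the 16 tested stars and open symbols the 16 that did not pass the blank percentile on enough arrays. dre-miR-199* and dre-miR-9* stand above all others, and single high or low points mark dre-miR-18b*, dre-miR-727*, dre-miR-126* and dre-miR-30e*.

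Of the 16 stars that were not tested, 5 did not exceed the blank percentile on any array: dre-miR-132*, dre-miR-19b*, dre-miR-202*, dre-miR-2187* and dre-miR-723*. The other 11 did so on 1 to 3 arrays, and these were dre-miR-133b*, dre-miR-1388*, dre-miR-15a*, dre-miR-1788*, dre-miR-17a*, dre-miR-182*, dre-miR-19a*, dre-miR-20a*, dre-miR-2185*, dre-miR-27c* and dre-miR-459*. For dre-miR-27c* this was control replicate 4 alone, where 1 of its 10 spots had a raw intensity of 9785 and the median spot lay below the blank median of 179. For 11 of the 16 the guide was tested, for 5 neither strand was, and in no pair was the star tested without its guide. The guides of several undetected stars were among the bright probes. The star dre-miR-20a* averaged 6.43 ± 0.08 in MC-RR embryos and 6.51 ± 0.05 in control embryos (SD, n = 4 each), while its guide dre-miR-20a averaged 12.25 ± 0.30 in MC-RR embryos and 12.42 ± 0.11 in control embryos. Likewise dre-miR-17a, also of the miR-17 family that promotes proliferation, averaged 11.66 ± 0.19 in MC-RR embryos and 11.86 ± 0.17 in control embryos, and its star was above the blank percentile on 3 arrays. The guide dre-miR-19b of the same genomic cluster was at least 11.03-fold brighter than its star in MC-RR embryos and at least 8.30-fold in control embryos. That bound sets a star below background at the lowest signal among probes whose mean and median spot exceeded the blank percentile of the array, and the measured mean differences were -4.02 in MC-RR embryos and -4.24 in control embryos on the log2 scale. For the muscle miRNA dre-miR-133b the bound was at least 5.75-fold in control embryos.

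In the RefSeq gene table (assembly GRCz12tu) the names of 31 of the 32 stars matched a miRNA gene, 8 of them more than 1. A second miRNA gene lay within 2000 bases for 11. The guides of dre-miR-17a*, dre-miR-19a*, dre-miR-19b* and dre-miR-20a* lie in a cluster with mir18a and mir92a-1, and that of dre-miR-18b* beside mir17a-2 and mir92a-2. Of these 5 stars only dre-miR-18b* was tested, and all 5 guides were. The sensory miRNA dre-miR-182 lies beside dre-mir-183 and dre-mir-96, dre-miR-133b beside mir206-1, dre-miR-15a beside mir16b, dre-miR-132 beside mir212-2, dre-miR-27c beside mir23a-2 and dre-miR-181a beside members of miR-181b, miR-181c and miR-181d.

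The level of star and guide was set side by side within each array for the 16 pairs in which both were tested. Probes differ in brightness per molecule, so the difference is one of probe signal, given as a description and not as a ratio of molecules. The guide was brighter on all 8 arrays in 9 pairs, the star was brighter on all 8 in 2, and 5 were mixed. The 9 pairs include miR-126b, whose probes read the same strand and are not arms of a duplex. The median star minus guide difference was -1.05 in MC-RR embryos and -0.77 in control embryos on the log2 scale. This median depends on how background is treated. With plain background subtraction it was -2.63 in MC-RR embryos and -2.04 in control embryos.

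The star was the brighter strand for miR-199 and miR-140. The star minus guide difference of dre-miR-199* was 3.55, 3.66, 3.26 and 3.76 in MC-RR embryos, against 3.91, 3.83, 3.37 and 3.80 in control embryos, with means of 3.56 ± 0.22 in MC-RR embryos and 3.73 ± 0.24 in control embryos (SD, n = 4 each). All 8 arrays lay close together, and the star signal was 11.8 times that of the guide in MC-RR embryos and 13.2 times in control embryos. For miR-140, a cartilage miRNA of the zebrafish head, the difference was 0.06, 2.13, 0.51 and 0.57 in MC-RR embryos, against 0.71, 0.46, 0.27 and 0.47 in control embryos. The 2.13 on MC-RR replicate 2 stood apart. There the star dre-miR-140* had 8.69, close to its other arrays, while the guide dre-miR-140 had 6.56, against 7.75 to 8.56 on the other MC-RR arrays. The spots of dre-miR-140 on MC-RR replicate 2 lay between 37.7 and 47.9 in raw intensity, all below the blank median of 48.3, so the value of 2.13 is set against a probe that was not above background. The guide exceeded the blank percentile on 3 arrays of each group. The pair of miR-727 had differences of -0.33, -0.47, -0.47 and 2.47 in MC-RR embryos, against -0.39, -0.60, -0.52 and 1.55 in control embryos. Its star was the dimmer strand on 6 arrays and the brighter only on the replicate 4 array of each group, so its positive mean rested on those arrays.

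Among the tested pairs the guide exceeded the star most for miR-203b, which belongs to an epidermal miRNA family. The difference of dre-miR-203b* was -4.72, -5.37, -4.95 and -5.55 in MC-RR embryos, against -5.10, -5.18, -5.30 and -5.69 in control embryos. The guide signal was 35.5 times that of the star in MC-RR embryos and 39.9 times in control embryos, and the groups overlapped. For miR-126, a miRNA of endothelium that acts in vessel growth, the difference of dre-miR-126* was -4.13, -4.15, -4.14 and -2.29 in MC-RR embryos, against -5.01, -5.15, -4.65 and -2.61 in control embryos. Replicate 4 had the smallest gap between strands in both groups, and among the other replicates the gap was narrower on every MC-RR array than on every control array. On the arrays of those replicates the star signal was 6.24 to 6.63, near the level of probes that show nothing, so the gap there was set mainly by the guide. For miR-10d, encoded in a Hox gene cluster, the difference of dre-miR-10d* was -3.03, -4.55, -3.35 and -3.98 in MC-RR embryos, against -3.23, -3.55, -3.67 and -4.27 in control embryos, and the groups overlapped widely. The pair of dre-miR-126b*, which reads the same strand through both probes, differed by -0.27 ± 0.09 in MC-RR embryos and -0.19 ± 0.11 in control embryos.

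**Figure D2:**
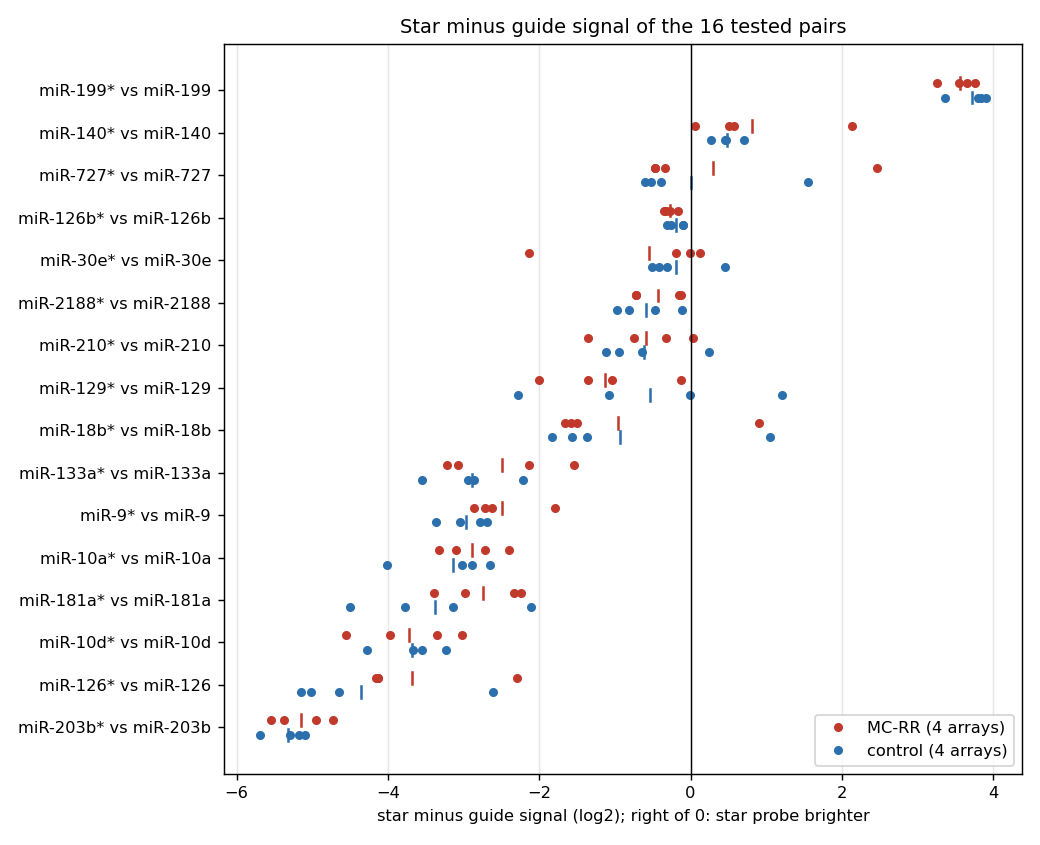
Star minus guide log2 signal within each array for the 16 tested pairs, MC-RR in red above control in blue for each pair, with a bar at the mean of 4 arrays. Points right of 0 are arrays on which the star probe was the brighter, as for miR-199 and miR-140 on all 8 arrays, and the guide of miR-203b exceeds its star by about 5 on every array.

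No star strand passed the test of a change with MC-RR in the main fit, which does not pair the arrays by replicate number. In limma, 0 of the 16 tested stars had an unadjusted p under 0.05, against 16 of all 187 tested zebrafish probes (8.56%), and after Benjamini-Hochberg adjustment 0 of the 187 were under 0.05. With replicate numbers as a block in limma, 2 of the 16 stars and 30 of the 187 probes (16%) had an unadjusted p under 0.05, and 0 an adjusted one. Over the stars the log2 fold change (MC-RR over control) lay between -0.72 and 0.33, with a median of 0.03, against -0.06 over all tested probes. It was above 0 in 10 stars and below 0 in 6. Scaling by the array median instead moved the median of all tested probes to 0.10 and that of the stars to 0.20, with 12 stars above 0, and without normalization 8 were above 0. The median size of the change was 0.13 over the stars, against 0.17 over all tested probes. The tested stars were dimmer, with a median signal of 7.26 in MC-RR embryos and 7.64 in control embryos. Over all tested probes it was 8.79 in MC-RR embryos and 8.75 in control embryos. Differences of dim probes are compressed, so these sizes cannot show that stars changed less. The groups overlapped for all 16 tested stars, against 6 of 187 probes (3.21%) whose groups did not. Among stars under the filter, the groups did not overlap for dre-miR-15a* and dre-miR-202*, which lay at 6.01 to 6.23 and 5.89 to 6.19, at the level of probes that show nothing.

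The star with the lowest p was dre-miR-129*, the partner of a miRNA known from the brain in mammals. It had log2 signals of 6.79, 6.81, 7.78 and 7.74 in MC-RR embryos, against 7.22, 8.56, 8.13 and 8.09 in control embryos. It was lower in MC-RR embryos in 4 of 4 pairs of replicate numbers, and the groups overlapped through control replicate 1. The log2 fold change was -0.72 ± 0.36 (SE), with an unadjusted p of 0.0768 and an adjusted p of 0.737 in limma. A two-sided exact permutation test gave p = 0.143, and 4 arrays against 4 cannot give less than 0.0286. Without control replicate 1 the log2 fold change was -0.98 and the unadjusted p 0.0182. The next was dre-miR-210*, the partner of a miRNA induced by low oxygen, with 8.98, 8.70, 8.91 and 8.43 in MC-RR embryos, against 8.75, 8.36, 8.38 and 8.18 in control embryos. It was higher in MC-RR embryos in 4 of 4 pairs by numbers that overlapped between groups. The log2 fold change was 0.33 ± 0.18, with an unadjusted p of 0.107 and an adjusted p of 0.774 in limma. Its unadjusted p was 0.0493 without MC-RR replicate 4 and 0.0404 without control replicate 1.

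The star of miR-181a, a miRNA known from lymphocytes and neural tissue, had log2 signals of 7.36, 6.53, 7.22 and 7.74 in MC-RR embryos, against 7.82, 7.07, 7.38 and 8.49 in control embryos. dre-miR-181a* was lower in MC-RR embryos in 4 of 4 pairs of replicate numbers, with a log2 fold change of -0.48 ± 0.36, an adjusted p of 0.857 in limma and an exact permutation p of 0.314. On MC-RR replicate 2 its spots lay between 39.4 and 47.9 in raw intensity, all below the blank median of 48.3. On control replicate 4 its mean of 259 was under the blank percentile of 512. Pairs 2 and 4 thus each hold a star value that was not above background. When replicate numbers entered the limma fit as a block, 2 of the 16 stars had an unadjusted p under 0.05, against 30 of all 187 tested probes (16%). These were dre-miR-181a*, with an unadjusted p of 0.0147 and an adjusted p of 0.184, and dre-miR-210*, with an unadjusted p of 0.0222 and an adjusted p of 0.194. With the block and without pair 4, the unadjusted p was 0.0598 for dre-miR-181a* and 0.0567 for dre-miR-210*, and without pair 3 it was 0.120 for dre-miR-210*. The star of the muscle miRNA miR-133a, dre-miR-133a*, had 6.71, 6.71, 6.79 and 6.48 in MC-RR embryos, against 6.97, 6.92, 7.0 and 6.60 in control embryos. The MC-RR value was the lower of each pair, and control replicate 4 lay within the MC-RR range. Its log2 fold change was -0.20 ± 0.15, with an adjusted p of 0.857 in limma and an exact permutation p of 0.114.

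The star of miR-203b, dre-miR-203b*, had 8.08, 7.68, 8.03 and 7.38 in MC-RR embryos, against 7.78, 7.66, 7.74 and 7.19 in control embryos. It was higher in MC-RR embryos in 4 of 4 pairs, with a log2 fold change of 0.20 ± 0.21. dre-miR-10a*, whose guide is encoded in a Hox gene cluster, had 7.20, 7.16, 7.42 and 7.11 in MC-RR embryos, against 7.24, 7.11, 7.16 and 6.87 in control embryos, with a log2 fold change of 0.12 ± 0.14. The groups overlapped in both. The star of miR-30e had 9.02, 6.67, 8.69 and 8.73 in MC-RR embryos, against 9.03, 8.46, 8.48 and 8.19 in control embryos, and its log2 fold change of -0.26 ± 0.50 came from MC-RR replicate 2 alone. On that array the 10 spots of dre-miR-30e* lay between 41.2 and 50.4 in raw intensity, around the blank median of 48.3, and its guide dre-miR-30e had 8.81, within the range of its other MC-RR arrays. The bright stars had log2 fold changes of 0.13 ± 0.15 for dre-miR-199*, -0.13 ± 0.21 for dre-miR-9* and 0.13 ± 0.25 for dre-miR-126b*. dre-miR-9* was lower in MC-RR embryos in 4 of 4 pairs, and dre-miR-199* and dre-miR-126b* higher in 4 of 4. The log2 fold change of the other 6 tested stars was between -0.07 (dre-miR-10d*) and 0.20 (dre-miR-727*).

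Among the guides, 3 of the 27 tested had an unadjusted p under 0.05 in limma, dre-miR-126 and dre-miR-181a lower and dre-miR-182 higher in MC-RR embryos, against 4.28% of all tested probes in each direction, and 0 passed after adjustment. dre-miR-126 had log2 signals of 10.48, 10.79, 10.41 and 10.23 in MC-RR embryos, against 11.25, 11.51, 10.92 and 10.87 in control embryos, a log2 fold change of -0.66 ± 0.20 with an unadjusted p of 0.00955 and an adjusted p of 0.427. The groups did not overlap. Its unadjusted p was 0.0529 with quantile normalization, 0.0639 in the deposited table and 0.209 with median scaling. In the limma fit with the replicate block it was 0.0011, with an adjusted p of 0.0958. dre-miR-181a had 10.35, 8.86, 10.62 and 9.98 in MC-RR embryos, against 10.96, 11.57, 11.15 and 10.59 in control embryos, a log2 fold change of -1.12 ± 0.39 with an unadjusted p of 0.0209 and an adjusted p of 0.427. The value of MC-RR replicate 2 was the lowest, and without both replicate 2 arrays the log2 fold change was -0.58, with an unadjusted p of 0.05. dre-miR-182 averaged 10.63 ± 0.23 in MC-RR embryos and 10.22 ± 0.06 in control embryos, a log2 fold change of 0.41 ± 0.15 with an unadjusted p of 0.0256 and an adjusted p of 0.427, and the groups did not overlap. In the blocked fit dre-miR-210 also had an unadjusted p under 0.05, at 0.0463 (adjusted 0.282), with a log2 fold change of 0.32 ± 0.51 in limma without the block.

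Whether a star and its guide differed in their change was tested on the star minus guide difference within each array. In limma without the replicate block, 0 of the 16 pairs (0%) had an unadjusted p under 0.05. The change of the difference ran from -0.59 for dre-miR-129* to 0.68 for dre-miR-126*, with a median of 0.16, and was above 0 in 10 pairs and below 0 in 6. Adjusted p-values were between 0.840 and 0.969. The 95% intervals extended from 0.41 to 1.85 on each side of the change. The narrowest was that of dre-miR-126b*, whose probes read the same strand. Among pairs of opposite strands it was 0.51, for dre-miR-199*. The groups overlapped in all 16 pairs.

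The lowest p, 0.149, belonged to miR-9. Its guide dre-miR-9 had log2 signals of 13.42, 14.90, 14.78 and 15.13 in MC-RR embryos, against 14.82, 15.18, 14.89 and 15.77 in control embryos. The guide was lowest on MC-RR replicate 1 and the star on replicate 1 of both groups. The star minus guide difference of dre-miR-9* was -1.79, -2.62, -2.71 and -2.86 in MC-RR embryos, against -3.05, -2.79, -2.69 and -3.36 in control embryos, a change of 0.48 ± 0.30 (SE) with a 95% interval from -0.21 to 1.16. The log2 fold change of the guide was -0.61 in the main fit and 0.02 with median scaling. For the star it was -0.13 in the main fit and 0.23 with median scaling. For miR-181a the difference was -2.98, -2.33, -3.40 and -2.25 in MC-RR embryos, against -3.14, -4.50, -3.77 and -2.10 in control embryos. The change of dre-miR-181a* was 0.64 ± 0.52, with an unadjusted p of 0.257 in limma, both strands being dimmer in MC-RR embryos in 4 of 4 pairs of replicate numbers. Without control replicate 4 it was 1.06, with an unadjusted p of 0.0383 in limma. With plain background subtraction its sign turned, to -0.90. The star did not exceed the blank percentile on MC-RR replicate 2 or on control replicate 4.

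For miR-126 the guide was dimmer in MC-RR embryos and the star near background. dre-miR-126* had log2 signals of 6.35, 6.63, 6.28 and 7.94 in MC-RR embryos, against 6.24, 6.36, 6.28 and 8.27 in control embryos, a log2 fold change of 0.01 ± 0.55. It exceeded the blank percentile on 3 MC-RR arrays and 1 control array. The change of the star minus guide difference was 0.68 ± 0.67, with an unadjusted p of 0.341 in limma and a 95% interval from -0.86 to 2.21. In the blocked fit its unadjusted p was 0.0095 and the adjusted p 0.152, the only one of the 16 pairs (6.25%) under 0.05 before adjustment. Without both replicate 4 arrays the change was 0.79, with an unadjusted p of 0.0052. On those 6 arrays the star signal lay between 6.24 and 6.63, near the level of probes that show nothing. The difference there was set mainly by the guide. These p-values, with and without the block, therefore cannot decide whether the strands differed in their change.

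For miR-133a the star minus guide difference was -2.13, -1.54, -3.21 and -3.08 in MC-RR embryos, against -2.21, -2.94, -2.87 and -3.54 in control embryos, and the change of dre-miR-133a* was 0.40 ± 0.45. With plain background subtraction that change was -0.18. The guide dre-miR-133a averaged 9.16 ± 0.77 in MC-RR embryos and 9.76 ± 0.41 in control embryos, a log2 fold change of -0.60 ± 0.39, also below 0 like that of its star. For miR-129 the difference was -1.04, -1.35, -0.13 and -2.0 in MC-RR embryos, against -1.08, 0.00, 1.21 and -2.28 in control embryos. The control arrays alone spanned both signs, and the change of dre-miR-129* was -0.59 ± 0.74. The guide dre-miR-129 had 7.83, 8.17, 7.91 and 9.74 in MC-RR embryos, against 8.30, 8.56, 6.92 and 10.37 in control embryos, highest on replicate 4 in each group, a log2 fold change of -0.13 ± 0.73. For miR-210 the strands had nearly the same log2 fold change in the main fit, 0.33 for the star and 0.32 for the guide, and the change of the difference was 0.02, with a 95% interval from -0.91 to 0.94. That change was -0.59 with plain background subtraction and -0.10 with quantile normalization. For miR-199 the change was -0.17, with an interval from -0.68 to 0.34, and 0.13 with median scaling. Outside the tested pairs, dre-miR-182* had a star minus guide difference of -4.25 ± 0.33 in MC-RR embryos and -3.68 ± 0.23 in control embryos, and a two-sided exact permutation test gave p = 0.0286, the smallest it can give. This star was above the blank percentile on 1 MC-RR array and 2 control arrays, with signals of 6.25 to 6.74, near the level of probes that show nothing. The log2 fold change was -0.16 for the star and 0.41 for the guide. The pair was added after its values were seen and its star was near background, so that p-value cannot decide whether the strands differed in their change.

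**Figure D3:**
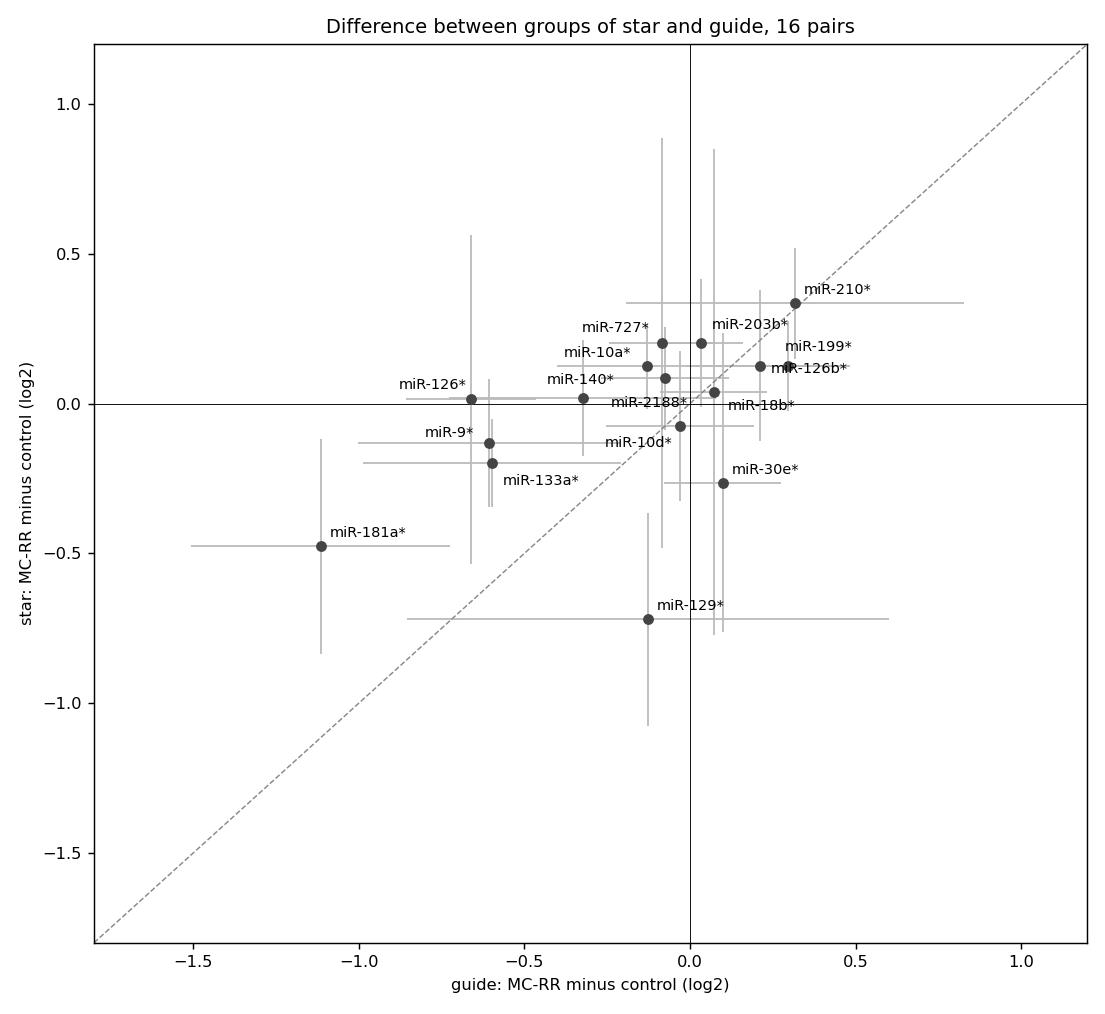
Log2 fold change (MC-RR over control) of the guide (horizontal) and of its star (vertical) for the 16 tested pairs, with bars of 1 standard error from limma and a dashed line of equal change. Points above the dashed line are pairs whose star minus guide difference was larger in MC-RR embryos, such as miR-181a and miR-126. No pair was called by the test of that difference without the replicate block. For miR-181a the sign of the change turned with plain background subtraction.

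Some stars differed more between replicate numbers than between groups. On both replicate 4 arrays 3 of the 16 tested stars stood more than 1 log2 unit above every other array of the group, as did 6 of the other 171 tested probes. Of these stars, dre-miR-126* and dre-miR-727* exceeded the blank percentile on 4 arrays, the fewest the filter allows, with MC-RR replicate 4 among them. They were thus tested only through an array on which they were high, and the counts were not compared by a test. dre-miR-18b*, from a cluster related to that of miR-17, had 6.65, 6.65, 6.28 and 8.90 in MC-RR embryos, against 6.52, 6.37, 6.19 and 9.24 in control embryos. Its guide dre-miR-18b had 8.31, 8.15, 7.86 and 8.0 in MC-RR embryos, against 8.09, 7.75, 8.01 and 8.18 in control embryos, without such a step. dre-miR-727* had 6.46, 6.40, 6.23 and 9.07 in MC-RR embryos, against 6.57, 6.38, 6.37 and 8.03 in control embryos. The third was dre-miR-126*, given above. The other probes were dre-miR-223, dre-miR-137, dre-miR-725, dre-miR-129, dre-miR-92b and dre-miR-190b. For the 3 stars the group means therefore rest on replicate 4, and leaving out MC-RR replicate 4 alone turned the log2 fold change of dre-miR-18b* to -0.56 and of dre-miR-126* to -0.37.

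The 10 spots of dre-miR-18b* lay between 344 and 509 in raw intensity on MC-RR replicate 4, all above the blank percentile of 120. On control replicate 4 they lay between 168 and 827, around a blank percentile of 512. Those of dre-miR-727* lay between 334 and 881 on MC-RR replicate 4 and between 55.1 and 385 on control replicate 4, all below the blank percentile of the latter. Mean raw intensity on control replicate 4 was 498 for dre-miR-18b*, 229 for dre-miR-727* and 241 for dre-miR-126*. None of these means exceeded the blank percentile of 512. Spots therefore agreed better on the MC-RR array than on the control array for dre-miR-18b*, with coefficients of variation of 13.4% and 37.0%. The part of the blank spots of control replicate 4 in its star signals was not tested. The median coefficient of variation over spots was 8.71% for the tested stars.

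**Figure D4:**
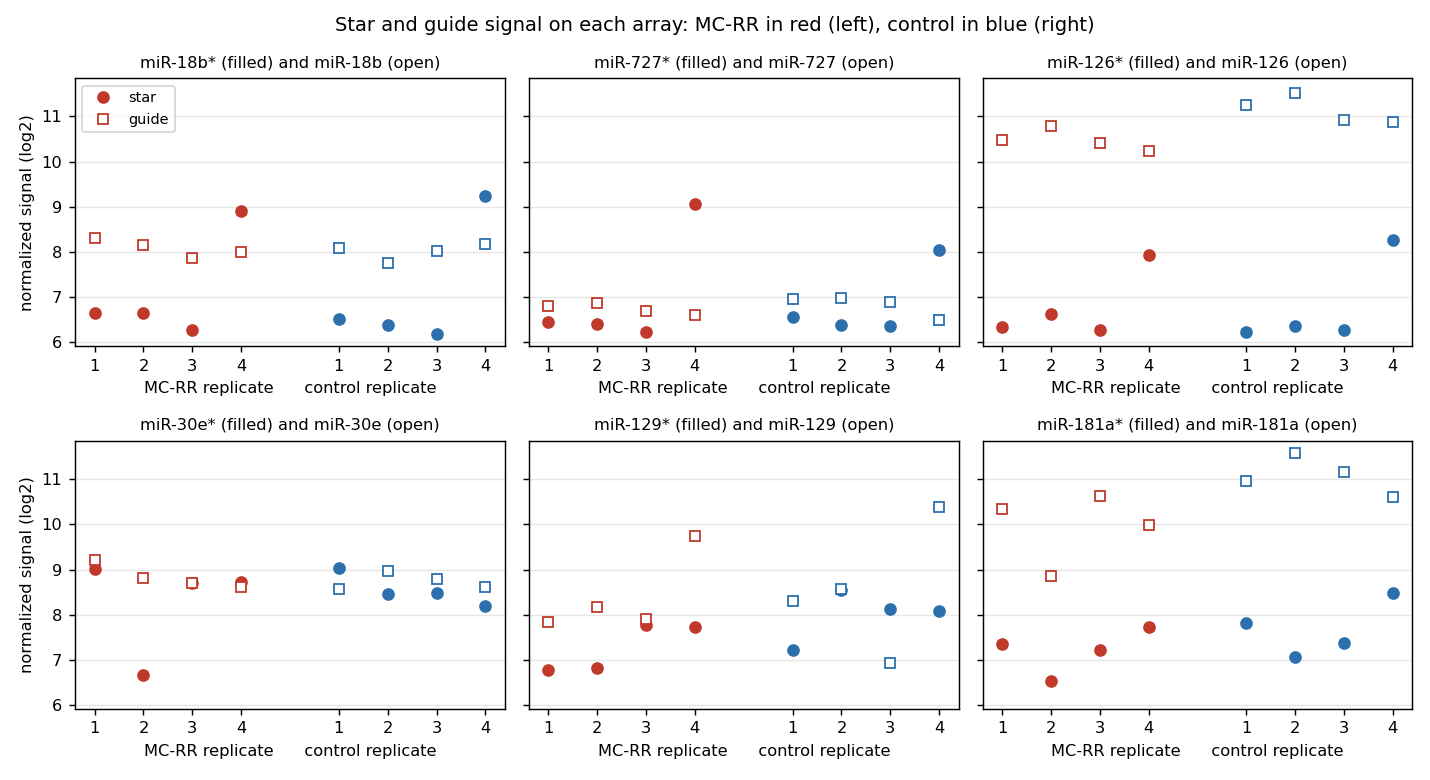
Log2 normalized intensity of star (filled circles) and guide (open squares) on each array for 6 pairs, MC-RR in red on the left and control in blue on the right. dre-miR-18b*, dre-miR-727* and dre-miR-126* are high on replicate 4 of both groups, though on control replicate 4 none of them exceeded the blank percentile. dre-miR-30e* is low on MC-RR replicate 2, and both strands of miR-181a are lower in MC-RR embryos at each replicate number. On MC-RR replicate 2 and control replicate 4, dre-miR-181a* did not exceed the blank percentile.

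A second probe of the same sequence stood among the 99 customer-defined probes for dre-miR-126*, dre-miR-181a* and dre-miR-9*, and for the guide dre-miR-181a. Over the 8 arrays the raw intensity of the second probe was 0.918 to 1.01 times that of the first for dre-miR-126*, 0.913 to 1.05 times for dre-miR-181a* and 0.945 to 1.05 times for dre-miR-9*. Both probes of dre-miR-126* gave similar raw values on replicate 4, with 203 and 192 on MC-RR replicate 4 and 241 and 221 on control replicate 4. On the other MC-RR arrays the first probe had 57.4 to 177, but blank levels differ between arrays. The 177 was on MC-RR replicate 1, where the blank median was 166. The blank median was 91.9 on MC-RR replicate 4 and 179 on control replicate 4, and the blank percentile 120 and 512. Both probes were thus above the percentile on MC-RR replicate 4 and under it on control replicate 4, where their agreement cannot show that the star was high. Of the 5 zebrafish probes that name an arm as 5p or 3p, from miR-142a, miR-142b and miR-460, 0 passed the filter, with signals of 5.98 to 6.33, so that they could not be set beside the stars.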

How the data were processed

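Small RNA of each embryo sample was hybridized by a service provider to its own microfluidic chip and read in 1 dye. The authors deposited scanner output with the mean intensity of each spot, neither background-subtracted nor normalized, and a table of background-subtracted, LOWESS-normalized intensity with 1 value per probe. Each column of that table ranked its own array's probes best (rho 0.999 to 1.00), and its scale is linear.

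The intensities were corrected with the normexp model of limma 3.58.1 in R 4.3.3, fitted to the foreground of all spots (offset 50). Values were log2-transformed, averaged over 10 spots and normalized by cyclic loess over the 248 zebrafish probes. On at least 4 of 8 arrays 187 probes exceeded the blank percentile (95th, 206 blank spots), and these were tested with limma's lmFit and eBayes, two-sided, with Benjamini-Hochberg adjustment. Star minus guide differences of 16 pairs were fitted in the same way, and single values also by exact permutation. Both fits were tested on simulated data. Duplexes were predicted with RNAduplex 2.7.2.

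The series' description speaks of paired embryos. Deviations from the group means correlated between arrays of one replicate number with r of 0.58, 0.29, 0.53 and 0.78 over the 187 probes. Over the 16 tested stars r was 0.91, 0.34, 0.88 and 0.89. From the series' description and these correlations, the numbers were taken to pair the samples. Stars high on both replicate 4 arrays, such as dre-miR-18b*, enter r at every number. Correlations between arrays of different numbers are not given here, so r by itself cannot show that the numbers pair the samples. The methods name no pairing, so the main fit has no block and its error holds the spread between pairs. The blocked fit takes that spread out and is given as an alternative. Each SE and 95% interval above is that of the main fit. With the block the SE was smaller for the stars, as for dre-miR-126b* (0.25 without and 0.09 with it) and dre-miR-126* (0.55 and 0.13). For the guide dre-miR-181a it was 0.39 without and 0.42 with the block. The limma p-values set the group difference against the spread between these samples. That spread includes the spread between pairs in the main fit and leaves it out in the blocked fit.

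The members and lists were chosen with earlier results of these data known. Values on every array are given for the 10 stars and 5 pairs with the smallest p, the 3 brightest stars, and the 3 highest and 3 lowest star minus guide differences. dre-miR-18b* and dre-miR-182* were added after their values were seen. Genome positions are not printed because no genome build is named with the arrays. Alternatives changed the normalization, background, offset, filter, spot summary, test, block and arrays used, and included the deposited table with a pseudocount of 16.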

Additional observations from a re-analysis of the deposited data

Results flagged for a closer look

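A single array stood far from the other 3 of its group in 14 of 64 sets of 4 values. Chance gives about 1 in 20 for independent sets, but the values of a star and of its difference from the guide are not independent. The stars dre-miR-126* and dre-miR-727* were also tested only through an array on which they were high. The count therefore cannot be set against that rate, and no conclusion is drawn from it. Of the 14, 10 were replicate 4 arrays and 3 were MC-RR replicate 2. On replicate 4, dre-miR-18b* was high with log2 signals of 8.90 in MC-RR embryos and 9.24 in control embryos, dre-miR-727* with 9.07 in MC-RR embryos and 8.03 in control embryos, and dre-miR-126* with 8.27 in control embryos. None of these stars exceeded the blank percentile on control replicate 4. The star minus guide difference on replicate 4 was high for dre-miR-18b* (0.90 in MC-RR embryos and 1.05 in control embryos), dre-miR-727* (2.47 in MC-RR embryos and 1.55 in control embryos) and dre-miR-126* (-2.29 in MC-RR embryos, against -4.15 to -4.13 on the other MC-RR arrays). On MC-RR replicate 2, dre-miR-30e* was low at 6.67, with a star minus guide difference of -2.13, and dre-miR-10d* was low at 6.30. On control replicate 1, dre-miR-2188* was high at 7.53, against 7.02 to 7.07 on the other control arrays.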

How the results depend on the processing

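No star and no pair passed the adjusted threshold under any alternative run. At the unadjusted threshold, 0 stars and 0 pairs became 5 stars (dre-miR-126b*, dre-miR-133a*, dre-miR-181a*, dre-miR-210* and dre-miR-9*) and 1 pair (dre-miR-126*) with the methods' t-test if paired by replicate number. Over all probes that paired t-test called 29 of 187 (15.5%), with a lowest adjusted p of 0.0613. Of the stars, dre-miR-9* had the lowest unadjusted p in it, 0.00033. Its log2 fold change of -0.13 became 0.23 with median scaling. The replicate block gave 2 stars and 1 pair, against 30 of 187 probes (16%). The methods' t-test taken as unpaired gave 0 stars and 0 pairs. The block changed no other call of a star or pair. With the block and without pair 1, 2 or 3 there were 2, 4 and 1 stars, against 13.9%, 22.5% and 11.8% of all 187 probes. Without pair 1, 2, 3 or 4 there were 1, 2, 1 and 1 pairs. Leaving out each array in turn gave 0 to 2 stars (dre-miR-210* without MC-RR replicate 4, dre-miR-129* and dre-miR-210* without control replicate 1) and 0 to 2 pairs (dre-miR-126* and dre-miR-181a* without control replicate 4). Of all 187 probes, 8.02% were under the threshold without MC-RR replicate 4 and 9.63% without control replicate 1. There was 1 pair under the threshold without both replicate 4 arrays (dre-miR-126*), 1 with no filter and 1 with worm probes as background (both dre-miR-182*). Over all probes the adjusted count was 0, and 1 with an offset of 1, in the deposited table and with the block without pair 2.

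The median star minus guide difference of -1.05 in MC-RR embryos and -0.77 in control embryos depended on the background correction and on the filter. It was -2.63 in MC-RR embryos and -2.04 in control embryos with plain background subtraction, -1.34 in MC-RR embryos and -0.98 in control embryos with an offset of 16, -1.57 in MC-RR embryos and -1.16 in control embryos with an offset of 1, -1.57 in MC-RR embryos and -1.06 in control embryos in the deposited table. With worm probes as background, which changes only the filter and leaves 20 pairs, it was -1.81 in MC-RR embryos and -1.91 in control embryos. With probes above blank on all 8 arrays 1 pair was left (dre-miR-9*), at -2.50 in MC-RR embryos and -2.97 in control embryos. The limma fit over pairs was not run on it, and its two-sided exact permutation p was 0.171. Without a filter it was -1.13 in control embryos. Leaving out each array in turn gave -1.21 to -0.92 in MC-RR embryos and -1.24 to -0.73 in control embryos, the lowest without control replicate 4. It was -1.24 in control embryos without both replicate 4 arrays and with the block without pair 4, and -0.88 without pair 3. The median log2 fold change of the stars stayed between -0.13, without MC-RR replicate 4, and 0.20, with median scaling.

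Of 1306 comparisons of single stars, guides and pairs with an alternative, 1257 kept their side of the unadjusted threshold, 11 lost it and 38 gained it, and 0 of those under it changed sign. Among values not under it, 125 changed sign. With the median in place of the mean of the spots set against the blank percentile, all 248 probes fell on the same side of the filter. The blank spots limit what can be seen, as 16 stars lay under the filter and control replicate 4 had a blank percentile of 512. With worm probes as background 21 stars were tested. Leaving out both replicate 4 or both replicate 2 arrays, the block without single pairs, worm probes as background and the median spot in the filter were chosen after seeing the data.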
